A study of Mus with 7 samples.

Results

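A set of 9 genes that define macrophage identity or receive colony-stimulating factors were followed in fetal liver-derived macrophages (FLMs): the transcription factors Spi1, Cebpa, Cebpb, Cebpd, Pparg and Bhlhe40, and the receptor genes Csf1r, Csf2ra and Csf2rb. They were selected by symbol, and each of the 9 symbols was found once among the 31053 genes of the count tables. Of the 9 members, 8 had enough UMIs (unique molecular identifiers, which count captured RNA molecules) for ratios, at least 10 in every library. The exception was Pparg, which was at or near 0 throughout.

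PU.1, the product of Spi1, opens myeloid enhancers, and the C/EBP factors bind beside it at many macrophage genes. C/EBPα is known for its part in early myeloid commitment, whereas C/EBPβ and C/EBPδ are induced during inflammatory and acute-phase responses. The CSF1 receptor (Csf1r) carries the main survival signal of most tissue macrophages. The GM-CSF receptor consists of a ligand-binding α chain (Csf2ra) and a signalling β chain (Csf2rb) that works through JAK2 and STAT5. In lung alveolar macrophages GM-CSF induces PPARγ, and the repressor BHLHE40 is known for its roles in the proliferation of tissue macrophages and in cytokine control.

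FLMs are non-transformed, wild-type macrophages grown from livers of C57BL/6J mouse fetuses, and all cultures received 30 ng/mL murine GM-CSF, so that no library represents cells without this ligand. Con cells were untreated and stayed in 10% FBS. The other 6 libraries came from medium with 0.25% FBS, in which cells were held for 24 h with 8.3 µM BSA (Veh) or with 25 µM DHA, an omega-3 fatty acid, bound to 8.3 µM BSA (DHA). Veh.LPS.0 and DHA.LPS.0 were collected at that point, and the remaining libraries after 1 or 4 h with 20 ng/mL LPS, the bacterial ligand of TLR4, in place of the fatty acid medium.

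Each condition was sequenced once, as a 10x 3′ single-cell library, so no difference has a replicate check and no p-value is given. Levels are UMIs of a gene per 1000000 UMIs of the library (CPM), with 95% Poisson intervals. Ratios of CPM carry 95% exact binomial intervals, and all intervals cover counting error only. A total of 11640 cells passed the limits of over 20000 UMIs, at least 2000 genes and under 20% mitochondrial UMIs, with 692 to 3073 cells and a median of 29369 to 56239 UMIs per cell in each library. Every kept cell held UMIs of at least 3 of 9 macrophage markers, whose summed level was 5817 to 7089 CPM. The members Spi1 and Csf1r are among these 9 markers, so this check was not independent of the members. Summed neutrophil markers were at most 6.99 CPM and hepatocyte markers at most 7.71 CPM, those of mast, erythroid, stromal, dendritic and lymphoid cells were lower, and 3 markers of any of these types were not found together in a kept cell. Pairs of libraries shared at most 22 barcodes, at most 4 of them among kept cells. The filter removed unequal shares of the barcodes, since 74.4% to 80.0% of those in the DHA libraries were at or above 20% mitochondrial UMIs, against 29.0% to 54.7% in Con and Veh. A gene is called higher or lower where its CPM ratio was over 1.5 or under 1/1.5 and its UMIs were found in no fewer than 50% of cells in one of the compared libraries. These are limits of size and no test, and the share of cells was taken at each library's own depth.

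Between Con and Veh.LPS.0, 1 of the 6 members that passed the share limit was called, Csf1r, which was lower in Veh.LPS.0. These libraries differed in serum, in BSA and in 24 h of culture at once, which cannot be told apart. In this comparison 16.5% of the 6168 genes that passed the limit were called, with 8.92% of the 6168 lower. After 1 h of LPS in Veh cells, Cebpb was the single member called, higher, of 6 past the limit, where 6.46% of all genes tested were called and 4.38% were called higher. After 4 h, 5 members were called higher (Spi1, Cebpb, Cebpd, Csf2ra and Bhlhe40) and 2 lower (Csf1r and Csf2rb) of 7 past the limit. All genes moved widely at 4 h, with 44.0% called, 11.4% higher and 32.6% lower. Scaling by TMM factors in place of library totals shifted every log2 ratio of this comparison by 0.43, changed the split of all genes from 719 higher and 2053 lower to 1526 higher and 1031 lower, and left the members at 5 higher and 1 lower, since Csf2rb was no longer called. The median log2 ratio of these 7 members was 0.87, beside -0.28 over all genes tested, or 1.30 beside 0.15 with TMM factors. Bhlhe40 passed the share limit through the 4 h library alone, with UMIs in 24.5% of cells at 0 h and 52.0% at 4 h. Cebpa and Pparg did not pass the share limit in any comparison.

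With DHA, 1 h of LPS gave 2 members called of 7, Cebpb and Bhlhe40, both higher, where 7.60% of all genes tested were called and 4.88% were called higher. Bhlhe40 passed the share limit through the 1 h library alone, with UMIs in 37.1% of cells at 0 h and 58.9% at 1 h, so its call was partly set by the limit. At 4 h it gave 4 higher (Spi1, Cebpb, Cebpd and Csf2ra) and 1 lower (Csf1r) of 6, where 39.2% of all genes were called, 9.89% higher and 29.3% lower. TMM factors shifted this last comparison by 0.30 and kept these 4 higher and 1 lower. Bhlhe40 was not among them because its UMIs were in 40.9% of DHA.LPS.4 cells, under the share limit. Its ratio of 4 h over 0 h was 1.95 in DHA and 2.17 in Veh, both past the fold limit. With cells at equal depth, its UMIs were in 32.1% of DHA.LPS.4 cells and 27.1% of Veh.LPS.4 cells. Between 1 and 4 h, 5 of 6 members were called in Veh and 5 of 6 in DHA, where 30.9% (8.53% higher and 22.4% lower) and 26.0% (7.39% higher and 18.6% lower) of all genes were. In both, Spi1, Cebpd and Csf2ra were higher at 4 h than at 1 h and Csf1r and Bhlhe40 lower, though Bhlhe40 was not called with TMM factors, which shifted these comparisons by 0.34 and 0.19 and added Cebpb, higher, in Veh. In DHA, Bhlhe40 passed the share limit between 1 and 4 h through the 1 h library alone. DHA against Veh gave no member called at 0, 1 or 4 h, of 6 past the limit each time, where 1.58%, 2.55% and 3.71% of all genes were called.

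**Figure D1:**
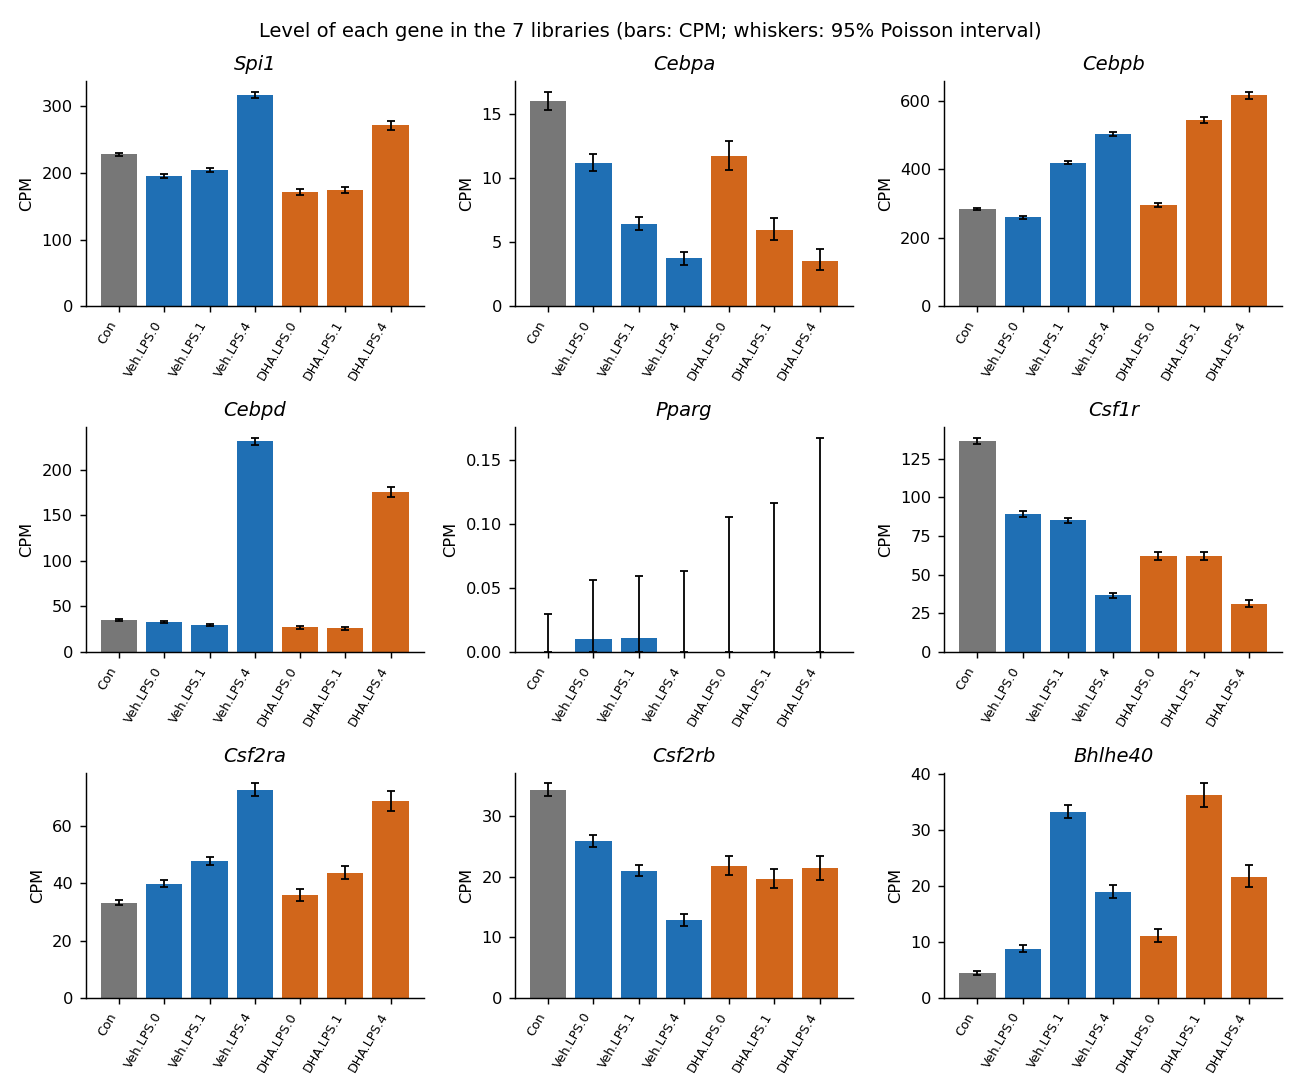
Level of each of the 9 genes (CPM, linear axis from 0) in the 7 libraries, with Con in grey, Veh in blue and DHA in orange. Whiskers are 95% Poisson intervals of counting error. Cebpd is high in the 4 h libraries alone, Bhlhe40 is highest at 1 h, Csf1r is highest in Con, and the axis of Pparg ends under 0.2 CPM.

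Spi1 (ENSMUSG00000002111; chr2:91082374-91115759, GRCm38) had a 1.86-fold range over the 7 libraries, or 2.49-fold with TMM factors. It was highest in Veh.LPS.4, with 317 CPM, and next in DHA.LPS.4, with 271 CPM. Con had 228 CPM, Veh.LPS.1 had 205 CPM and Veh.LPS.0 had 196 CPM, and DHA.LPS.1 and DHA.LPS.0 were lowest, with 175 and 171 CPM. DHA.LPS.0 and DHA.LPS.1 were the only neighbours in the order of levels that did not differ beyond counting error. After 4 h of LPS Spi1 was 1.62-fold higher in Veh (1.59 to 1.66) and 1.59-fold higher in DHA (1.53 to 1.65), whereas at 1 h the ratios were 1.05 and 1.02. In all deposited barcodes the 4 h log2 ratio in DHA was 0.46, short of 1.5-fold. When each cell was thinned to 20000 UMIs, 96.1% to 99.0% of cells in each library still held a Spi1 UMI. No kept cell type was available that should lack Spi1 or the other members, so shares of cells are given without such a background.

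Cebpa (ENSMUSG00000034957; chr7:35119293-35121928) was lower in each step of the experiment. From 16.0 CPM in Con it went to 11.2 CPM in the Veh library without LPS, 6.40 CPM after 1 h and 3.72 CPM after 4 h. The DHA series ran through 11.7 CPM without LPS, 5.94 CPM after 1 h and 3.54 CPM after 4 h. Veh and DHA did not differ beyond counting error at any hour, and every LPS library lay under every library without LPS. The gene stayed under the limit of 50% of cells, with UMIs in 26.3% of Con cells (24.7 to 28.0, exact binomial) when each was thinned to 20000 UMIs and in 5.06% at 4 h with DHA (3.55 to 6.96), so it enters no count above. By ratio alone it was at 0.333 after 4 h of LPS in Veh (0.287 to 0.386) and at 0.302 in DHA (0.234 to 0.386), and TMM factors left log2 ratios of -1.15 and -1.43.

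Cebpb (ENSMUSG00000056501; chr2:167688915-167690432) was the one member called after 1 h of LPS in both treatments. In Con it had 283 CPM. The Veh libraries had 259 CPM before LPS, 419 CPM after 1 h and 504 CPM after 4 h, and the DHA libraries 295, 544 and 616 CPM. All 4 LPS libraries lay above the other 3, and in kept cells the DHA library lay above its Veh counterpart at each hour, which did not hold in all barcodes. One hour of LPS raised the ratio to 1.62 in Veh (1.59 to 1.64) and to 1.84 in DHA (1.80 to 1.89). The difference between these responses was 0.19 on the log2 scale (0.15 to 0.23), and 8.88% of 8505 genes with UMIs in at least 25% of cells had a difference as high or higher. At 4 h the difference was 0.10, or -0.03 with TMM factors. DHA over Veh was 1.14 at 0 h, 1.30 at 1 h and 1.22 at 4 h, none past 1.5.

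Cebpd (ENSMUSG00000071637; chr16:15887286-15889545) had the largest LPS ratio of any member, by CPM and with TMM factors, and differed from Cebpb in its timing. It stayed between 25.9 and 35.3 CPM in the 5 libraries of Con, 0 h and 1 h, and reached 232 CPM after 4 h in Veh, and 176 CPM in DHA. These are 6.95-fold (6.69 to 7.22) and 6.47-fold (6.02 to 6.95) above their 0 h libraries, while at 1 h the ratios were 0.875 and 0.952. The share of thinned cells with a Cebpd UMI was 43.5% in Veh.LPS.0, 37.2% in Veh.LPS.1 and 89.0% in Veh.LPS.4. In DHA it was 39.7%, 35.2% and 83.5%. At 4 h the DHA level was 0.759 of the Veh level (0.732 to 0.787), short of the limit. The end of Cebpd overlaps that of Spidr in the RefSeq annotation, and how reads there were counted is not given in the sources used here.

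Pparg (ENSMUSG00000000440; chr6:115360879-115490404) was counted 2 times among 466508896 UMIs of 11640 cells, once in Veh.LPS.0 and once in Veh.LPS.1. The other 5 libraries had 0, which allows up to 0.0239 CPM in Con, the deepest library, and up to 0.136 CPM in DHA.LPS.4, the shallowest (3 counts of each library's total). All 31151 deposited barcodes together held 3 Pparg UMIs. No comparison of Pparg between conditions was possible with so few UMIs. Some genes of the alveolar macrophage programme that GM-CSF and PPARγ are known to sustain were also scarce. Of the 23 measured genes of the list for that programme, 9 were in under 1% of cells in every library. Of these, Pdk4, Marco, Chil3, Ear1, Ear2 and Krt79 had no UMI. Siglecf, Car4 and Cidec had 5, 2 and 1 UMIs in all. Other genes on the same list were measured well, with Lpl at 781 to 1921 CPM and Fabp5 at 86.3 to 420 CPM. Cd9 and Acadl had 342 and 122 CPM in Veh.LPS.0. Of the genes of this list past the share limit, 4 h of LPS gave 3 of 7 higher and 2 lower in Veh (4 and 0 with TMM factors), and 2 of 8 higher and 3 lower in DHA (2 and 2). Over all genes tested, 11.4% were higher and 32.6% lower in Veh, and 9.89% and 29.3% in DHA. With TMM factors all genes gave 1526 higher and 1031 lower of 6297 in Veh, and 1212 and 1065 of 6318 in DHA. DHA against Veh gave 3 of 8 higher and 0 lower at 0 h, 2 of 7 higher and 1 lower at 1 h, and 2 of 7 higher and 1 lower at 4 h (2 and 2 with TMM factors), beside the 1.58%, 2.55% and 3.71% of all genes called. Plin2, which coats lipid droplets, was higher with DHA at each hour, at 419 against 68.0 CPM at 0 h, 530 against 70.1 CPM at 1 h and 728 against 84.2 CPM at 4 h. Lower with DHA were Fabp5 at 1 h, with 183 against 305 CPM, and Lpl, which releases fatty acids from lipoproteins, at 4 h, with 781 against 1633 CPM. Fabp4, a textbook PPARγ target, went from 0.739 to 59.2 CPM over 4 h of LPS in Veh and from 0.257 to 33.7 CPM in DHA, in at most 20.7% of thinned cells. Fabp4, Cd9, Acadl and the genes with few UMIs were named after their values were seen.

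Bhlhe40 (ENSMUSG00000030103; chr6:108660629-108666925) was highest after 1 h of LPS. Con had 4.38 CPM. In Veh it went from 8.75 CPM to 33.2 CPM after 1 h and 19.0 CPM after 4 h, and in DHA from 11.1 CPM to 36.1 CPM and 21.6 CPM. All 6 pairs of neighbours in the order of its 7 levels differed beyond counting error, with Con lowest. The ratio of 1 h over 0 h was 3.80 in Veh (3.52 to 4.10) and 3.25 in DHA (2.90 to 3.66), though in Veh its UMIs were in 49.9% of cells, just under the share limit, so the difference there was not called. With a limit of 25%, 3 of 8 members were called in Veh at 1 h, Cebpb and Bhlhe40 higher and Cebpa lower, where 8.39% of all genes were called, 4.15% higher and 4.24% lower. Past the fold limit but not the share limit, the level in Veh.LPS.0 also exceeded that in Con (interval of the ratio 1.79 to 2.23). Its start overlaps the lncRNA 0610040F04Rik. Bhlhe41, its close relative, went the other way over 4 h of LPS, from 11.6 to 4.54 CPM in Veh and from 16.5 to 9.03 CPM in DHA, always in fewer than 50% of cells and named after its values were seen.

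Csf1r (ENSMUSG00000024621; chr18:61105572-61131139) was the one receptor gene called lower after 4 h of LPS in both treatments and under both scalings. Con cells held 137 CPM. In Veh it stood at 89.2 CPM before LPS, 85.0 CPM after 1 h and 36.7 CPM after 4 h, and in DHA at 62.2, 61.9 and 31.3 CPM. Con was the highest library and the 4 h libraries the lowest, and in kept cells the DHA library was under the Veh library at each hour, which did not hold at 4 h in all barcodes. Veh.LPS.0 over Con gave a ratio of 0.653 (0.636 to 0.670) and 4 h of LPS gave 0.412 in Veh (0.393 to 0.432) and 0.503 in DHA (0.461 to 0.548). The 1 h libraries were at 0.953 and 0.995 of their 0 h libraries. With DHA, the ratio to Veh was 0.697 at 0 h (0.665 to 0.731), 0.728 at 1 h and 0.851 at 4 h. None was past the lower limit of size, and the 0 h ratio was nearest to it. The share of thinned cells with a Csf1r UMI was 91.4% in Con, 78.9% in Veh.LPS.0 and 46.2% in Veh.LPS.4. The gene spans the lncRNA Gm52352 and the miRNA gene Mir6983, whose reads were not separated here.

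The 2 chains of the GM-CSF receptor went in opposite directions with LPS in Veh cells. Csf2ra (ENSMUSG00000059326; chr19:61217191-61228461), the α chain, had 33.3 CPM in Con. Veh cells held 39.9 CPM before LPS, 47.7 CPM after 1 h and 72.7 CPM after 4 h, and DHA cells 35.9, 43.7 and 68.7 CPM. Its levels were ordered by hour in both treatments, with Con lowest, and the 4 h libraries did not differ beyond counting error. The ratio of 4 h over 0 h was 1.82 in Veh (1.75 to 1.91) and 1.92 in DHA (1.78 to 2.07).

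Csf2rb (ENSMUSG00000071713; chr15:78325800-78351001), the β chain, had 34.4 CPM in Con. Veh went from 26.0 CPM without LPS to 21.0 CPM after 1 h and 12.9 CPM after 4 h, whereas DHA had 21.9, 19.7 and 21.4 CPM. Veh.LPS.4 thus stood alone as the lowest library, while DHA.LPS.0, DHA.LPS.4, Veh.LPS.1 and DHA.LPS.1, in this order, did not differ from one to the next beyond counting error. The ratio of 4 h over 0 h was 0.495 in Veh (0.456 to 0.537) and 0.979 in DHA (0.871 to 1.10). The LPS response at 4 h differed by 0.98 on the log2 scale between DHA and Veh (0.78 to 1.19), or by 0.85 with TMM factors. Of 8663 genes with UMIs in at least 25% of cells, 1.49% had a difference as high or higher, with a median of 0.12 over all of them. At 4 h the DHA level was 1.67-fold the Veh level (1.48 to 1.87), in the reverse of the ratio at 0 h, 0.842 (0.776 to 0.914). Csf2rb UMIs were in 41.8% of cells at 4 h in Veh and 38.0% in DHA, so the gene fell under the 50% limit there. With a limit of 25% it was the 1 member called of 7, where 2.22% of 7672 genes were called higher. At equal depth, a UMI was found in 18.2% of cells in Veh (15.9 to 20.8) and 28.0% in DHA (24.7 to 31.5), against 40.1% and 34.4% without LPS.

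Csf2rb2 (ENSMUSG00000071714; chr15:78282507-78305721) is the close copy of Csf2rb that lies beside it and encodes a β chain for IL-3. The sequences of the pair are so alike that reads may have been dropped or split between them in counting, so both values are uncertain. Con had 5.23 CPM, and the time course ran through 4.66, 4.62 and 3.36 CPM in Veh, whereas DHA had 4.37, 4.71 and 6.21 CPM. The difference in LPS response was 0.98 on the log2 scale (0.57 to 1.39). The receptor genes Il3ra and Kit had no UMI, and Il5ra and Flt3 had 1 and 3 UMIs in all. These were named after their values were seen.

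**Figure D2:**
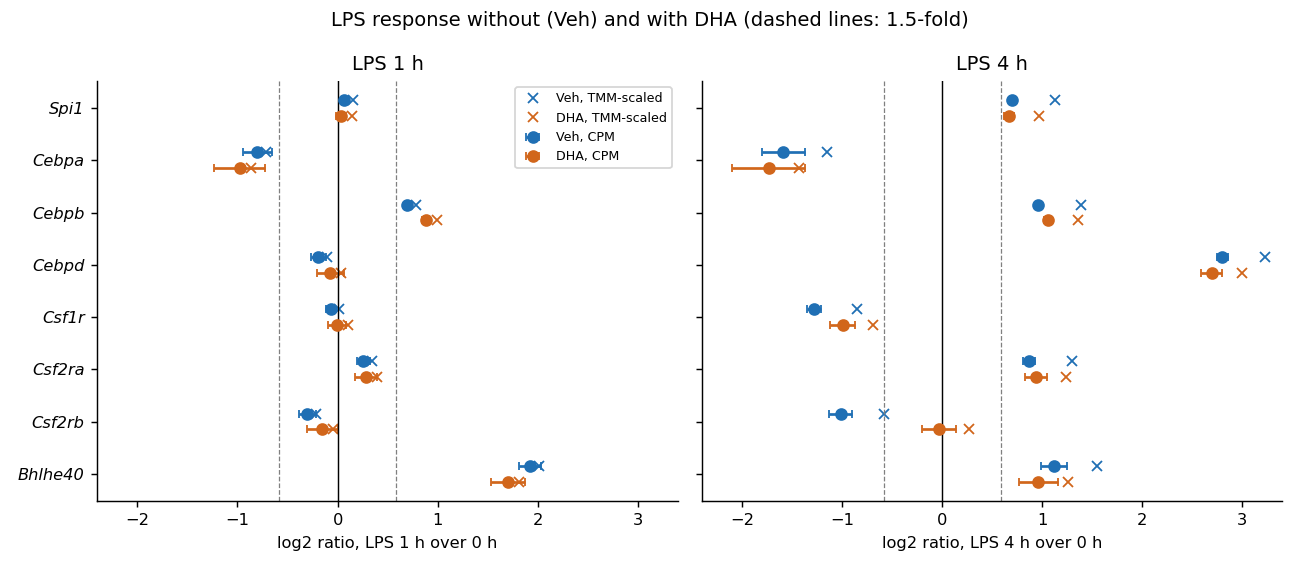
LPS response of the 8 measured members, as log2 ratios of 1 h (left) and 4 h (right) over 0 h, in Veh (blue) and DHA (orange). Circles are ratios of CPM with 95% counting intervals, crosses the same after TMM scaling, and dashed lines 1.5-fold. At 4 h the Veh and DHA points lie close together for most genes, whereas Csf2rb is at -1.01 in Veh and -0.03 in DHA.

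Ligands of the CSF family were followed over the same hours. Csf2, which encodes GM-CSF, was not found in Con. Over the time course it went from 0.0709 to 0.825 and 80.9 CPM in Veh and from 0.0571 to 0.817 and 38.5 CPM in DHA. The DHA level at 4 h was 0.476 of the Veh level (0.442 to 0.512). At equal depth it was found in 26.2% of cells in Veh and 21.5% in DHA, under the share limit, and was named after its values were seen, as was Csf1. Csf3, which encodes the neutrophil factor G-CSF and was the single gene of the 12-gene ligand list to pass the share limit, went from 2.12 to 92.9 and 1622 CPM in Veh and from 3.83 to 119 and 2305 CPM in DHA. Its DHA level at 4 h was 1.42-fold the Veh level, a difference in the other direction from that of Csf2 and not past the limit. Csf1, the ligand of Csf1r, went from 0.446 to 2.05 and 5.53 CPM in Veh and from 0.571 to 3.30 and 5.49 CPM in DHA. Il34, the other ligand, had at most 0.314 CPM in any library.

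Csf2rb was compared between cells of the 4 h libraries that held a Csf2 UMI and cells that did not, at 20000 UMIs per cell. In Veh.LPS.4 the level was 9.42 CPM in 260 cells with Csf2 and 12.6 CPM in 733 cells without, a ratio of 0.751 (0.536 to 1.03). In DHA.LPS.4 it was 15.8 CPM in 149 cells with Csf2 and 21.4 CPM in 543 cells without, a ratio of 0.738 (0.528 to 1.01). Neither ratio differed from 1 beyond counting error. Within each class the DHA cells held more, 1.67-fold with Csf2 (1.10 to 2.55) and 1.70-fold without (1.40 to 2.08).

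**Figure D3:**
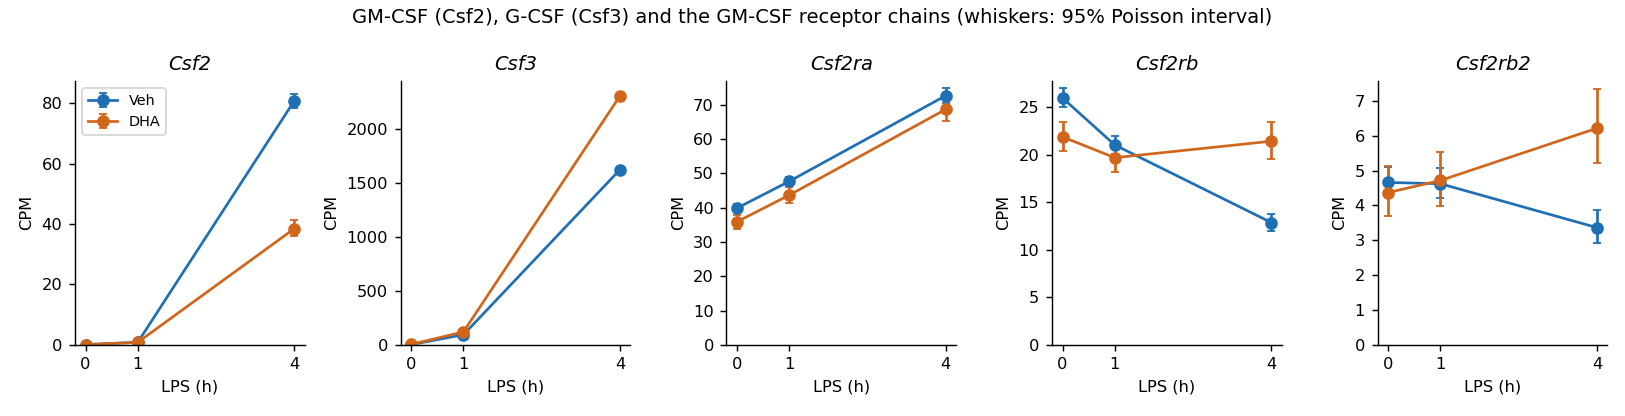
Levels (CPM, linear axes from 0) of the GM-CSF gene Csf2, the G-CSF gene Csf3 and the receptor chains Csf2ra, Csf2rb and Csf2rb2 against hours of LPS, in Veh (blue) and DHA (orange). Whiskers are 95% Poisson intervals. At 4 h the DHA library is lower for Csf2, higher for Csf3, Csf2rb and Csf2rb2, and within counting error of Veh for Csf2ra.

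Genes that act downstream of the receptors were taken from lists. Of the 20 genes for CSF receptor signalling and feedback, 16 passed the share limit in Veh at 0 and 4 h. Of these, 4 were higher at 4 h and 6 lower (median log2 ratio -0.26, beside -0.28 for all genes tested). Over all genes, 11.4% were higher and 32.6% lower. Pim1, a STAT5-responsive kinase, had the highest ratio of the list, with 63.3, 298 and 266 CPM over the Veh time course. The lowest ratios were those of Inpp5d (SHIP1), a phosphatase that limits PI3-kinase signals, at 33.5, 27.2 and 11.5 CPM, and of the adaptor Dok1, which went from 30.1 to 13.3 CPM by 1 h and had a 4 h ratio of 0.399. In DHA, 4 of 16 were higher and 4 lower at 4 h, beside 9.89% and 29.3% of all genes. Pim1 was again highest in the list, and Inpp5d and Dok1 were again lowest. The STAT5 target Cish, which feeds back on cytokine receptors, was 1.51-fold higher at 1 h in Veh, but lower at 4 h in Veh, at 0.632 of the 0 h level (not past the limit with TMM factors), and in DHA, at 0.537. With TMM factors the Veh list at 4 h had 5 higher and 3 lower, beside 1526 and 1031 of all 6297 genes. DHA against Veh gave none of this list past the limits at any hour, except Cish at 4 h with TMM factors.

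Genes that control CSF1R shedding and turnover were a list of 10, of which 5 passed the share limit at 4 h. In Veh 3 were higher and 1 lower, beside 11.4% and 32.6% of all genes. DHA gave the same counts for the list, beside 9.89% and 29.3% of all genes. The tyrosine phosphatases Ptpre and Ptprj were highest, from 25.2 to 109 CPM and from 14.7 to 53.9 CPM in Veh between 0 and 4 h. Ptprj passed the share limit there through the 4 h library alone, with UMIs in 41.9% of Veh.LPS.0 cells. Between DHA.LPS.0 and Veh.LPS.0, 4 of the list passed, so the 4 h counts of both treatments were partly set by the limit. Adam10, a membrane metalloprotease, was lowest, from 101 to 59.4 CPM, and was not past the limit with TMM factors. Adam17, the protease known to shed CSF1R, went from 146 to 183 CPM, a ratio of 1.25 that was past the limit with TMM factors, in DHA as well. With these factors the list had 4 higher and 0 lower in both treatments. All genes then gave 1526 higher and 1031 lower of 6297 in Veh, and 1212 and 1065 of 6318 in DHA.

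Of 32 partner transcription factors, 18 passed the share limit in Veh after 4 h, with 4 higher and 6 lower, beside 11.4% higher and 32.6% lower over all genes. The share of the list called lower was thus close to that of all genes. With TMM factors 7 of the list were higher and 4 lower, beside 1526 and 1031 of all 6297 genes. Ets2, an ETS factor like PU.1, and Id2, an inhibitor of basic helix-loop-helix factors, were highest, from 68.3 to 236 CPM and from 19.7 to 43.0 CPM. Id2 passed the share limit through the 4 h library alone, with UMIs in 40.4% of Veh.LPS.0 cells. The count of higher genes was thus partly set by the limit. Mef2c, a myeloid MADS-box factor, and Lmo2, a haematopoietic cofactor, were lowest, from 370 to 61.0 CPM and from 105 to 32.3 CPM. Veh.LPS.0 against Con gave 1 higher and 4 lower of 19, beside 468 and 550 of all 6168 genes. The 1 higher was Irf8, a partner of PU.1, at 56.9 CPM in Con and 97.6 CPM in Veh.LPS.0. With DHA no gene of this list was past the limits at 0, 1 or 4 h, except Mef2c at 4 h with TMM factors.

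Known targets of the factors were looked at in the same way. Of 19 measured PU.1 targets, all passed the share limit. After 4 h of LPS in Veh 2 were higher and 3 lower, beside 11.4% and 32.6% of all genes. With TMM factors 10 of the targets were higher and 2 lower, beside 1526 and 1031 of all 6297 genes. Of the targets, Mpeg1, which encodes a pore-forming protein, and Cybb, the NADPH oxidase subunit, were highest, from 71.1 to 128 CPM and from 873 to 1396 CPM. The Fc receptors Fcgr1 and Fcgr3 were lowest, from 54.8 to 12.8 CPM and from 108 to 46.1 CPM. Of 16 C/EBP targets, 7 passed the limit at 4 h in Veh and 5 were higher (median log2 ratio 6.07, beside -0.28 over all genes, of which 11.4% were higher), with Csf3 and Ptgs2 (cyclooxygenase-2, from 4.13 to 465 CPM) at the top. In DHA 6 of 7 were higher at 4 h and 1 lower, beside 9.89% and 29.3% of all genes. Csf3 and the acute-phase gene Saa3 (from 1.86 to 183 CPM) were at the top. Without LPS, 3 of the 16 passed the limit between Con and Veh.LPS.0 and 3 between Veh.LPS.0 and DHA.LPS.0. The rest of the 7 thus entered through a 4 h library, where they were found in more cells. Csf3, for example, was in 1.73% of Veh cells at 0 h and 98.2% at 4 h. These counts and the median were partly set by the limit, and induction of C/EBP targets was not tested. Between DHA and Veh at 4 h Lcn2, an iron-binding acute-phase protein, was 1.56-fold higher, at 442 and 284 CPM, which TMM factors brought under the limit.

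DHA against Veh was also examined in all 31151 deposited barcodes, because the filter kept a smaller share of barcodes in the DHA libraries. Kept cells and the barcodes outside the filter differed in the members themselves. In all 7 libraries Csf1r was higher outside the filter, by no less than 1.58-fold, as was Csf2ra, by 1.68- to 2.23-fold, whereas Spi1 was at 0.319 to 0.621, Cebpb at 0.526 to 0.748 and Cebpd at 0.458 to 0.725 of the level in kept cells. Csf2rb was at 0.903 to 1.25.

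In all barcodes the DHA over Veh log2 ratio of Csf1r was -0.10, -0.04 and 0.14 at 0, 1 and 4 h, in place of -0.52, -0.46 and -0.23 in kept cells. That of Csf2ra was 0.28, 0.26 and 0.26 in place of -0.15, -0.13 and -0.08. Spi1 came to -0.60, -0.71 and -0.77 in place of -0.19, -0.23 and -0.23, past 1.5-fold at each hour, and Cebpd to -0.79 at 4 h. That of Bhlhe40 came to -0.01, -0.11 and -0.21 in place of 0.34, 0.12 and 0.19. The sign of the DHA over Veh log2 ratio thus depended on the barcodes kept in several cases. These were Csf2ra and Bhlhe40 at each hour, Cebpb at 0 and 4 h, Csf1r at 4 h and Cebpa at 0 h. In kept cells Csf2ra at 4 h and Cebpa at 0 h did not differ between DHA and Veh beyond counting error. The totals behind these CPM include mitochondrial UMIs. Of the UMIs in the DHA libraries, 46.3%, 48.6% and 61.3% lay outside the filter at 0, 1 and 4 h. In Veh these shares were 13.3%, 17.6% and 22.9%. The part of mitochondrial UMIs in the ratios over all barcodes was not tested. Csf2rb at 4 h was at 0.61 in all barcodes and 0.74 in kept cells.

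**Figure D4:**
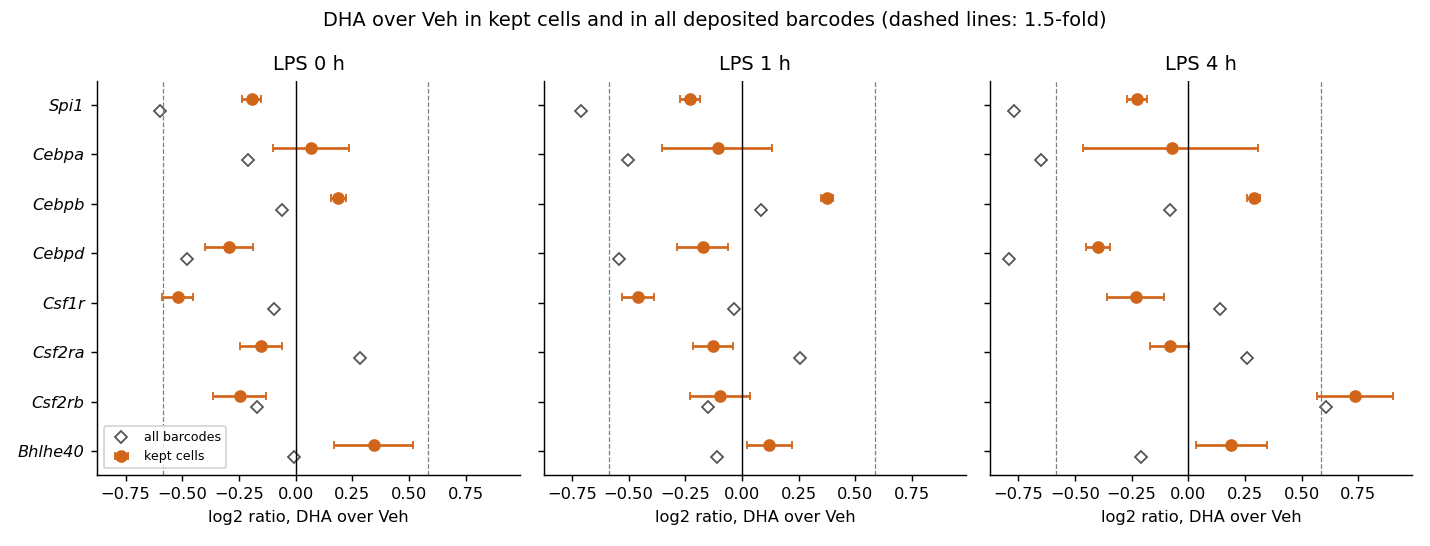
DHA over Veh, as log2 ratios of CPM, for the 8 measured members at 0, 1 and 4 h of LPS. Orange circles are kept cells with 95% counting intervals, white diamonds all deposited barcodes, and dashed lines 1.5-fold. For Csf2ra the diamonds lie right of 0 and the circles left of it at each hour, and for Csf2rb at 4 h both lie right of 0.

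Cell-to-cell variation was described within each library at 20000 UMIs per cell. Spi1 had a median of 3 to 6 UMIs per cell, and Cebpb went from a median of 5 in Veh.LPS.0 to 9 in Veh.LPS.4. Cebpd in Veh.LPS.4 had a median of 4, against 0 in Veh.LPS.0. Over the 28 pairs of measured members, Spearman correlations across cells lay between -0.11 and 0.11 in every library, apart from Spi1 with Cebpd at 4 h. That pair gave 0.23 over 993 Veh.LPS.4 cells and 0.27 over 692 DHA.LPS.4 cells, and at most 0.07 in the other 5 libraries. Cells of 1 library share their preparation, so these values describe that library. Several members had few UMIs per cell at this depth, such as Cebpa with a mean of at most 0.33, and counts so low can hold correlations near 0. Values near 0 thus do not show that members vary independently. Cebpd had a mean of 0.54 to 0.73 UMIs in the libraries of Con, 0 h and 1 h, against 4.62 in Veh.LPS.4 and 3.65 in DHA.LPS.4. The part of this level in the 4 h correlations was not tested.

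Because FLMs divide in culture, members were also compared between the 25% of cells with most UMIs of 20 mitosis genes (mitosis-high cells) and the 25% with fewest, each taken within its own library. The number of mitosis UMIs at which the upper class began differed between libraries, from 16 in Veh.LPS.4 and 33 in DHA.LPS.4 to 115 in Con, where the lower class reached up to 27, so the classes are relative to each library and do not hold like cells across libraries. Cebpd was lower in mitosis-high cells in 7 of 7 libraries beyond counting error, with log2 ratios of -1.20 to -0.53. Spi1 was lower in 7 of 7 libraries, 6 of them beyond counting error, and Csf2ra in 7 of 7, 5 beyond. Cebpb had no common direction, with 2 libraries higher and 2 lower beyond counting error. Before thinning, mitosis-high cells were deeper, with medians of 46936 against 34325 UMIs in Veh.LPS.0, and the part of depth in these ratios was not tested. The same ratios were not taken over all genes, so it is not known whether shifts as small as those of Spi1 were common. Cells tied at a class limit were taken in barcode order. Tied at the lower limit were 162 cells in Veh.LPS.4, for a class of 248, and 93 in DHA.LPS.4, for a class of 173.

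Csf2rb was lower in the mitosis-high cells of both 4 h libraries, at 6.45 against 15.1 CPM in Veh.LPS.4 and 13.9 against 29.5 CPM in DHA.LPS.4. It was also lower beyond counting error in Con, Veh.LPS.0 and Veh.LPS.1, with ratios of 0.725, 0.763 and 0.825. DHA.LPS.0 and DHA.LPS.1 went the other way, with ratios of 1.13 and 1.31, both within counting error. At 4 h the DHA cells held more than the Veh cells in each class. The ratio was 2.15-fold in mitosis-high cells (1.35 to 3.48) and 1.95-fold in those with fewest mitosis UMIs (1.43 to 2.66). The upper class, though, began at 16 mitosis UMIs in Veh and 33 in DHA. Mitosis genes themselves were lower at 4 h, 19 of 19 past the limits in Veh and 14 of 15 in DHA, or 9 of 15 with TMM factors. Between DHA.LPS.4 and Veh.LPS.4, 7 of the 20 mitosis genes passed the share limit. Most of the genes counted thus entered through the 0 h library alone, and these counts were partly set by the limit. Over all genes 32.6% were lower in Veh and 29.3% in DHA, or 1065 of 6318 in DHA with TMM factors.

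**Figure D5:**
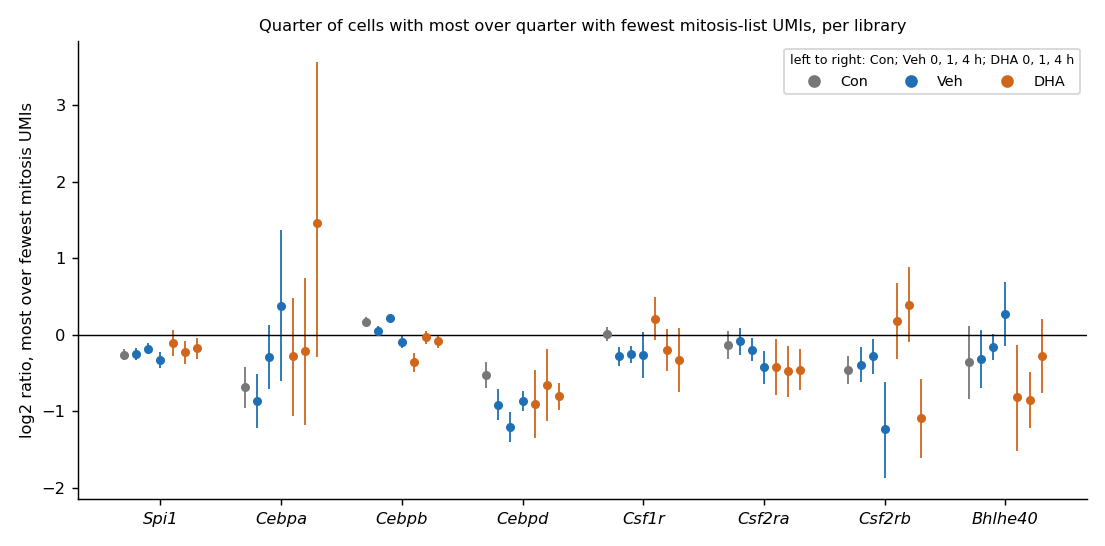
Log2 ratio of the level in the 25% of cells with most mitosis-gene UMIs over the 25% with fewest, for the 8 measured members, with 1 point per library and 95% counting intervals. All cells were thinned to 20000 UMIs. All 7 points of Cebpd lie under 0, as do all 7 of Spi1 and of Csf2ra, while those of Cebpb lie on both sides.

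The genes whose levels ran most alike over the 7 libraries were found among 6848 genes with UMIs in at least 50% of cells of some library, by Pearson correlation of log2 CPM. For Cebpd they were Denr, Gk and Trps1 (r of 0.994 to 0.999), and for Csf2ra Nfkb2, Slc15a3 and Grap (0.994 to 0.999). For Csf2rb they were Zfp664, Pon2 and Cdt1 (0.985 to 0.998), and for Csf1r Mcph1, Relt and Tma7 (0.994 to 0.996). Spi1 ran with Rwdd4a, Bcl2a1d and 5430427O19Rik, Cebpb with Zyx, Noct and Xiap, and Bhlhe40 with Sertad2, Avl9 and Maff. With 7 libraries that share the LPS time course and the same library totals, values of this height describe the pattern and nothing more.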

How the data were processed

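The authors deposited, for each of 7 libraries, unnormalized counts of UMIs per gene and barcode. Per the labels and the file headers these came from Cell Ranger 3.1.0 on mm10, whereas the methods of the study give another version. Cells were kept by the limits of the study's methods. UMIs were summed per gene and library and divided by the library total (CPM). Library totals were 22045775 to 125716982 UMIs. Coordinates are those of RefSeq on GRCm38.p6, matched by symbol. TMM factors came from edgeR 4.0.16, used for scaling alone. For equal depth, cells were thinned at random to 20000 UMIs (seed 1), with Python 3.11.15 and numpy 2.4.6. Interval and call functions were tested on simulated data. Doublets were not removed.

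The members and gene lists were chosen with earlier results of these data known. Named were all members, Csf2rb2, and from each list the 2 highest and 2 lowest log2 ratios past the share limit, with exceptions marked. Of the list genes, Clec7a and Siglec5 were not analysed here. Alternatives were other filters, scalings, fold and share limits. Protein, miRNA and promoter sequences were not used here. Some genes that the naming rule selects are not reported here.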

Additional observations from a re-analysis of the deposited data

Results flagged for a closer look

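Csf2rb2, the close copy of Csf2rb, differed in direction between treatments. After 4 h of LPS its level was lower than at 0 h in Veh (log2 ratio -0.47) and higher in DHA (0.51), both beyond counting error, with a difference of 0.98 between them. With TMM factors the Veh ratio was -0.04, so the lower value in Veh rested on the scaling by library totals, while the difference was 0.85. With 1 library per condition the difference was not tested. The values rest on 460 and 197 UMIs in Veh and on 153 and 137 in DHA at 0 and 4 h.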

How the results depend on the processing

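For each count of members called, 10 alternatives were run, and 78 of 100 counts stayed within 1.5 times the reported one. With all deposited barcodes the count was 0 for Veh.LPS.0 against Con (reported 1), 3 for Veh from 1 to 4 h (reported 5), 1, 1 and 2 for DHA against Veh at 0, 1 and 4 h (reported 0 each), and 1, 3 and 2 for DHA at 1 h over 0 h, 4 h over 0 h and 4 h over 1 h (reported 2, 5 and 5). With a 2-fold limit it was 0 for Veh.LPS.0 against Con, 0, 4 and 2 for Veh at 1 h over 0 h, 4 h over 0 h and 4 h over 1 h, and 1, 2 and 1 for the same in DHA. Without a share limit it was 2 for Veh.LPS.0 against Con, 3 for 1 h of LPS in Veh and 1 for DHA against Veh at 4 h, and with a limit of 25% it was 3 for 1 h of LPS in Veh and 1 for DHA against Veh at 4 h. Under 10% mitochondrial UMIs gave 2 for 1 h of LPS in Veh, and thinned cells gave 1 for 1 h of LPS in DHA.

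No called member changed sign. Of 80 log2 ratios of members, 65 kept their sign under all 7 alternatives that apply to them and 15 changed it under at least 1. Counts over all genes were highest without a share limit and lowest with a 2-fold limit or all barcodes, with a range of 1447 to 7460 around 2772 for 4 h of LPS in Veh and of 52 to 1831 around 207 for DHA against Veh at 4 h. No paired analysis was possible because each condition had 1 library. Leaving out a library was not possible for the same reason. Pparg, and Csf2 without LPS, had too few UMIs for their levels to be compared.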
